A study of Mus musculus with 24 samples.

Results

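The genes described here belong to the leukotriene and prostaglandin pathway and comprise 9 of the 53801 genes in the count table: *Cysltr1*, *Alox5*, *Alox5ap*, *Lta4h*, *Ltc4s*, *Ptgs1*, *Ptgs2*, *Hpgds* and *Alox15*. They were picked by name around *Cysltr1*, which in turn was picked because it had the largest rise in P199L-ERG over WT-ERG cells. That difference in DMSO is therefore given as a description without a test. Of the 9 genes, 7 had enough reads to be tested. *Alox5* and *Alox15* did not pass the filter on low counts, and their reads are given separately.

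RNA sequencing was performed on ER-Hoxb8 cells, murine granulocyte-monocyte progenitors of C57BL/6 origin that are kept immature by an estrogen-dependent Hoxb8 protein. The cells stably carried the human WT-ERG transcription factor, the P199L-ERG variant or an empty lentiviral vector (BB). All were washed free of beta-estradiol and then exposed for 36 h to 5 µM BRD3308, an HDAC3 inhibitor, or to DMSO, its solvent. Estrogen withdrawal was thus common to all 6 groups, namely BB, WT-ERG and P199L-ERG cells in DMSO and the same lines in BRD3308, with 4 libraries each. Elsewhere the study gives another time and another dose for this treatment. The stable lines were sorted for GFP after transduction, and separate transductions are not stated for the replicates, so the effect of a construct and a difference between derived lines cannot be told apart. The replicates were described as independent experiments.

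Leukotrienes and prostaglandins are lipid mediators made from arachidonic acid, which phospholipases free from membranes. In one branch, 5-lipoxygenase (*Alox5*) works with its activating protein (*Alox5ap*) to make an unstable leukotriene, which *Lta4h* turns into the neutrophil attractant leukotriene B4 and *Ltc4s* into the cysteinyl leukotrienes, whose receptor is encoded by *Cysltr1*. In the other branch, the cyclooxygenases encoded by *Ptgs1* and *Ptgs2* make the precursor from which *Hpgds* produces prostaglandin D2. Neutrophils are known for leukotriene B4, whereas mast cells, basophils and eosinophils are known for cysteinyl leukotrienes and prostaglandin D2.

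Libraries held 12510036 to 16280939 counts, and 12963 genes were fitted together across the 24 libraries by quasi-likelihood in edgeR. Values are TMM-scaled counts per 1000000 (CPM), given for each replicate from 1 to 4 or as mean ± SD. The tested members were above the filter level of 0.663 CPM in every library of every group, except *Ptgs2* in P199L-ERG cells in DMSO (3 of 4). A gene is said to rise, fall or differ where the Benjamini-Hochberg adjusted p over all genes tested was under 0.05. The labelled identity was visible in the granulocyte-monocyte progenitor genes, whose 8 markers summed to between 22888 and 30998 CPM in all libraries. Of the mast cell and basophil markers, *Fcer1a*, *Cma1* and *Tpsb2* had 0 counts in all libraries together and *Mcpt4* had 1. Of the eosinophil markers, *Epx* had 1 count and *Ear1* had 0. Other genes of both lists were detected, and 6 of 11 mast cell and basophil markers and 3 of 9 eosinophil markers were tested. Group means ran from 175 to 264 CPM for *Hdc*, from 24.8 to 221 CPM for *Cpa3* and from 27.6 to 67.8 CPM for *Mcpt8*. For *Siglecf* they ran from 59.3 to 146 CPM, and the eosinophil list summed to between 56.9 and 158.9 CPM over all libraries. In replicate 4 of WT-ERG and of P199L-ERG cells in DMSO, deviations from the group mean went with exon length across 12950 genes (Spearman's rho -0.35 and -0.328), against -0.167 to 0.319 in the other libraries.

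Per kilobase of exon, the 9 genes spanned a wide range of mean levels over the 24 libraries. *Lta4h* was at 276 CPM per kilobase and *Alox5ap* at 275, followed by *Ptgs1* at 37.5. Next came *Ltc4s* at 2.04, *Cysltr1* at 1.21, *Hpgds* at 1.09 and *Ptgs2* at 0.401. *Alox5* and *Alox15* stood at 0.0979 and 0.0787. The genes for 5-lipoxygenase activating protein and leukotriene A4 hydrolase were thus high in cells in which the lipoxygenase gene itself was near the limit of detection.

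**Figure D1:**
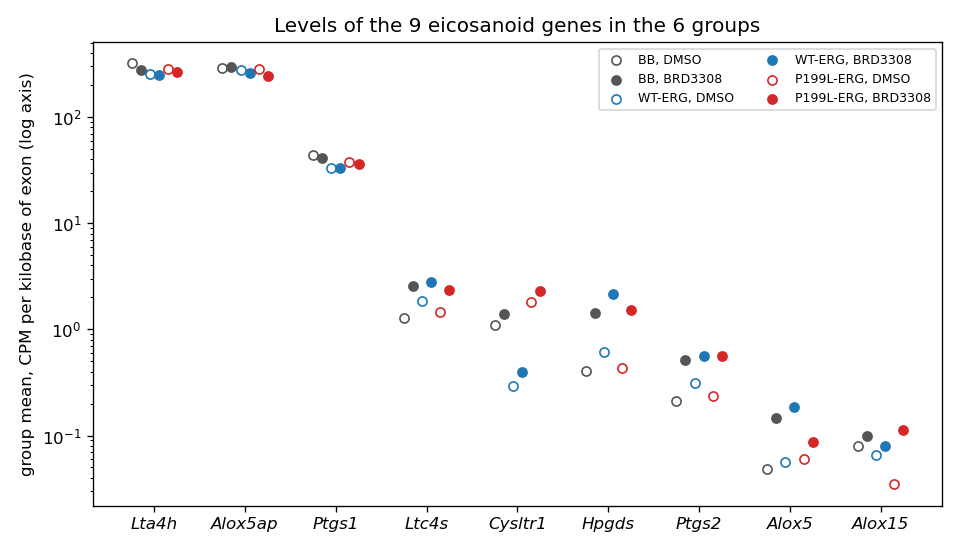
Mean level of each gene in each of the 6 groups, in CPM per kilobase of exon on a log axis, with open circles for DMSO and filled circles for BRD3308, and grey, blue and red for BB, WT-ERG and P199L-ERG. *Lta4h* and *Alox5ap* lay near 275 CPM per kilobase, whereas *Alox5* and *Alox15* lay near 0.1 CPM per kilobase.

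*Alox5*, the lipoxygenase that starts leukotriene synthesis, had 142 counts over all libraries together, with 0 to 16 in a library. The 4 DMSO-treated libraries of each line together held 11 counts in BB, 14 in WT-ERG and 15 in P199L-ERG cells, and those in BRD3308 held 35, 45 and 22. In a fit without the filter on low counts, the log2 fold change of BRD3308 against DMSO was 1.58 in BB cells (edgeR adjusted p = 0.00785), 1.65 in WT-ERG cells (adjusted p = 0.00135) and 0.52 in P199L-ERG cells (adjusted p = 0.539). Adjusted p-values of the unfiltered fit are not on the scale of the main fit. For BRD3308 in BB cells, edgeR gave *Hpgds* 6.35e-36 without the filter against 2.47e-11 with it, and *Ptgs1* 0.246 against 0.0948. The lower response of P199L-ERG than of BB cells did not pass in the unfiltered fit (difference -1.06, edgeR adjusted p = 0.772). *Alox15*, which encodes another lipoxygenase, had 69 counts in all, between 1 and 7 in a library, and passed no comparison in that fit. Without replicate 4 of both ERG lines in DMSO, *Alox5* passed the filter. Its BRD3308 response was then called in BB (1.59) and WT-ERG cells (1.53) and not in P199L-ERG cells (0.33). In the main fit *Alox5* was under the filter level in all DMSO libraries, so these values are a description.

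*Cysltr1*, the receptor for cysteinyl leukotrienes (ENSMUSG00000052821, GRCm38 chromosome X, 106574346 to 106603679, minus strand), is described in full because the other genes were gathered around it. In DMSO, the BB libraries were at 5.22, 5.52, 6.40 and 5.28 CPM. The WT-ERG libraries were at 1.68, 0.789, 1.43 and 2.10 CPM, and the P199L-ERG libraries at 9.39, 9.29, 9.88 and 8.63 CPM. All P199L-ERG libraries were above all BB libraries, which were above all WT-ERG libraries.

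In BRD3308, *Cysltr1* was at 7.81, 6.97, 7.34 and 6.65 CPM in BB cells. It was at 1.55, 1.73, 2.20 and 2.75 CPM in WT-ERG cells and at 10.4, 12.9, 12 and 11.9 CPM in P199L-ERG cells. The order of the lines was the one seen in DMSO, again without overlap. Arranged by mean, the 6 groups ran from WT-ERG in DMSO (1.5 ± 0.551 CPM, SD, n = 4) and in BRD3308 (2.06 ± 0.539) through BB in DMSO (5.61 ± 0.547) and in BRD3308 (7.19 ± 0.498) to P199L-ERG in DMSO (9.30 ± 0.516) and in BRD3308 (11.8 ± 1.04). Among neighbours in this order, only both WT-ERG groups overlapped.

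**Figure D2:**
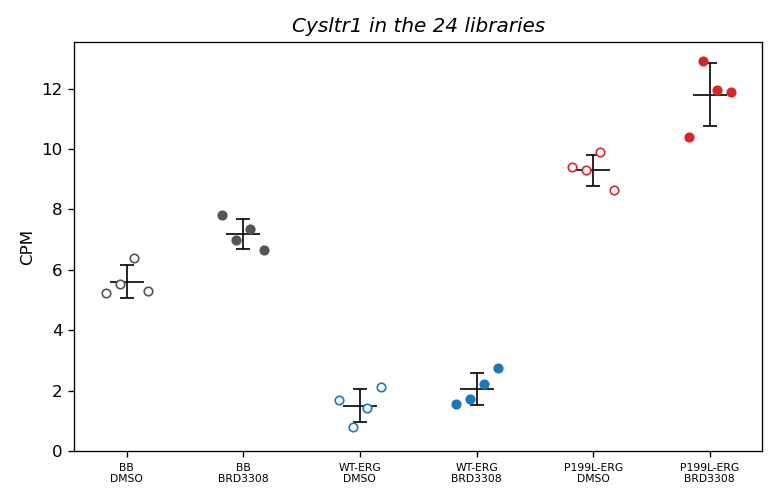
*Cysltr1* in CPM in each of the 24 libraries, with open circles for DMSO, filled circles for BRD3308, and black bars for mean and SD (n = 4). WT-ERG libraries lay between 0.789 and 2.75 CPM, BB libraries between 5.22 and 7.81 CPM, and P199L-ERG libraries between 8.63 and 12.9 CPM.

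In DMSO, the comparison that chose it, *Cysltr1* differed between P199L-ERG and WT-ERG cells by a log2 fold change of 2.67. This was rank 1 among the 9769 genes whose mean log2 CPM was 2 or more, and rank 10 among all 12963 genes tested. The next genes by that measure were *Fam234b* at 2.29 and *Miga1* at 2.27. For the other members the P199L-ERG to WT-ERG values in DMSO, with no test, were -0.49 for *Hpgds*, -0.41 for *Ptgs2*, -0.35 for *Ltc4s*, 0.18 for *Ptgs1*, 0.15 for *Lta4h* and 0.03 for *Alox5ap*.

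The same difference was then measured in BRD3308-treated cells, whose libraries had not been used in the choice. *Cysltr1* was higher in P199L-ERG than in WT-ERG cells by 2.53 log2 units (SE 0.14, 95% confidence interval 2.24 to 2.83, edgeR adjusted p = 3.83e-13), or 5.80-fold. The exact two-sided permutation p of 4 against 4 libraries was 0.0286, the smallest that this design can give. The libraries share the derived lines with those in DMSO. With each library left out in turn the difference ran from 2.43 to 2.70. Because these are bulk samples, fewer cells that express a gene and less RNA of it per cell cannot be told apart here or below.

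Against BB cells in BRD3308, *Cysltr1* was lower in WT-ERG cells (-1.82 log2 units, SE 0.16, edgeR adjusted p = 5.02e-10) and higher in P199L-ERG cells (0.71, SE 0.11, adjusted p = 4.21e-05). The corresponding values in DMSO, given without a test, were -1.94 and 0.73. In BB cells BRD3308 raised *Cysltr1* by 0.36 log2 units (SE 0.13, edgeR adjusted p = 0.0252). This call was lost without replicate 1, 2 or 4 of the BB cells in DMSO or replicate 1 or 3 in BRD3308, with adjusted p up to 0.0783 and values of 0.31 to 0.43 over all libraries left out. The BRD3308 values, without a test, were 0.48 in WT-ERG and 0.34 in P199L-ERG cells.

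The genes most like *Cysltr1* were sought among 9768 others whose mean log2 CPM was 2 or more, by Pearson's r of log2 CPM over the 24 libraries. They were *Sorl1* (r = 0.955), *Dmrta2* (0.926), *Miga1* (0.918), *Chdh* (0.884) and *Fam234b* (0.86). The libraries fall into 6 groups, so these values are a description. Among them *Sorl1* had group means of 7.79 and 7.37 CPM in WT-ERG cells, 24.4 and 25.4 CPM in BB cells, and 33.9 and 40.6 CPM in P199L-ERG cells, each in DMSO and then in BRD3308. In DMSO *Miga1* was at 14.9 CPM in BB against 12.8 CPM in P199L-ERG cells and *Chdh* at 110.3 against 107 CPM, unlike the order of *Cysltr1*.

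Among the enzymes, *Hpgds*, *Ltc4s* and *Ptgs2* rose with BRD3308 in all 3 lines. Windows of 300 bases around the annotated start, from 250 before to 50 after it, were found in RefSeq (GRCm38.p6) for 6 of the 9 genes. The bases upstream of the outermost annotated start are shown for *Ptgs2* and *Ltc4s*, both raised by BRD3308. The *Ptgs2* stretch is chr1:150099781-150100030 on the plus strand and the *Ltc4s* stretch is chr11:50238617-50238782 on the minus strand, each written 5′ to 3′, with a match to the C/EBP motif TTGCNNAA in capitals where there is one.
Ptgs2: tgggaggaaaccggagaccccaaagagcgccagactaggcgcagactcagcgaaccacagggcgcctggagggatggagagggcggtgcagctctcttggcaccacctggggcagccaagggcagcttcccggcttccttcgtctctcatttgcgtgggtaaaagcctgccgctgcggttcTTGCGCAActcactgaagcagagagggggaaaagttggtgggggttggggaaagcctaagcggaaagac
Ltc4s: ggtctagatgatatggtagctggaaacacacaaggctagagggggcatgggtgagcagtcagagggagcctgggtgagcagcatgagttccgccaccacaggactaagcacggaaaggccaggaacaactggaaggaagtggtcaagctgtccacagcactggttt

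Both strands of the whole windows were searched for several motifs. TTGCNNAA was found once in the window of *Ptgs2* and once in that of *Hpgds*, and in none of the windows of *Alox5*, *Lta4h*, *Ltc4s* and *Ptgs1*. It occurs in 10.8% of all 32851 windows. The ETS motif CAGGAAG, held by 13.3% of all windows, was found once in *Hpgds* and in no other of the 6 windows. Its relative CCGGAAG (8.86% of windows), the TATA box letters TATAAA (13.6%), the AP-1 motif TGANTCA (7.81%) and the GATA motif AGATAA (11.2%) were found in none of the 6. The GC box GGGCGG (35.7%) was found once each in *Ptgs2* and *Alox5*. The E-box CACGTG (7.15%) and the CRE letters CGTCA (20.8%) were found once each in *Ptgs2*, downstream of the start and overlapping each other. A match is a string of letters and not a measured site.

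*Hpgds*, the hematopoietic prostaglandin D synthase (ENSMUSG00000029919, chromosome 6, 65117293 to 65144908, minus strand), had the largest response of the members tested. In DMSO its libraries were at 2.36, 2.86, 3.24 and 1.97 CPM in BB cells, at 3.44, 4.55, 3.66 and 4.05 CPM in WT-ERG cells, and at 3.09, 2.20, 2.51 and 3.42 CPM in P199L-ERG cells. In BRD3308 they were at 8.57, 9.03, 9.81 and 9.61 CPM in BB, at 12.6, 13.8, 12.9 and 15.5 CPM in WT-ERG, and at 10.5, 9.38, 8.17 and 11.1 CPM in P199L-ERG cells. Every BRD3308-treated library was above every DMSO-treated library.

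In log2 units *Hpgds* rose by 1.81 in BB cells (SE 0.14, edgeR adjusted p = 2.47e-11), by 1.80 in WT-ERG cells (SE 0.12, adjusted p = 1.41e-12) and by 1.81 in P199L-ERG cells (SE 0.14, adjusted p = 1.25e-11). The response of WT-ERG minus that of BB cells was -0.01 (95% confidence interval -0.39 to 0.36), and for P199L-ERG it was -0.004 (-0.41 to 0.40). The lines differed in level. WT-ERG cells were higher than BB cells by 0.58 in DMSO (SE 0.16, adjusted p = 0.00785) and by 0.57 in BRD3308 (SE 0.11, adjusted p = 0.000199). P199L-ERG cells were lower than WT-ERG cells in BRD3308 by 0.48 (-0.48 log2 units, SE 0.10, adjusted p = 0.00534). Against BB cells the P199L-ERG values were 0.09 in DMSO (95% confidence interval -0.27 to 0.45) and 0.08 in BRD3308 (-0.14 to 0.31), which did not pass.

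*Ltc4s*, the synthase of the first cysteinyl leukotriene (ENSMUSG00000020377, chromosome 11, 50236461 to 50238616, minus strand), was at 1.22, 1.40, 1.06 and 1.5 CPM in BB cells in DMSO and at 2.92, 2.71, 2.27 and 2.53 CPM in BRD3308. WT-ERG libraries were at 2.39, 1.64, 1.74 and 1.78 CPM in DMSO and at 3.62, 1.79, 2.54 and 3.29 CPM in BRD3308. P199L-ERG libraries were at 1.48, 1.32, 1.32 and 1.78 CPM in DMSO and at 2.16, 2.53, 2.35 and 2.43 CPM in BRD3308. The treatments did not overlap in BB and P199L-ERG cells, whereas in WT-ERG cells replicate 1 in DMSO was above replicate 2 in BRD3308.

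*Ltc4s* rose by 1.01 on the log2 scale in BB cells (SE 0.20, edgeR adjusted p = 0.000151), by 0.57 in WT-ERG cells (SE 0.18, adjusted p = 0.0113) and by 0.69 in P199L-ERG cells (SE 0.20, adjusted p = 0.00481). Without replicate 1 of the WT-ERG cells in BRD3308 the WT-ERG value was 0.40 and did not pass (adjusted p = 0.0832). Against BB cells in DMSO, the WT-ERG difference was 0.54 and did not pass (SE 0.21, edgeR adjusted p = 0.0591). It passed without replicate 1 (adjusted p = 0.0474) or replicate 2 (adjusted p = 0.0445) of the WT-ERG cells in BRD3308, which share the estimate of spread. The gene has 268 of its 1014 exon bases in common with the antisense gene *Gm26542*, which had 148 counts in all, and the strand setting of the counting is not given in the sources used here.

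*Ptgs2*, the inducible cyclooxygenase (ENSMUSG00000032487, chromosome 1, 150100031 to 150108227, plus strand), was at 0.930, 1.14, 1.13 and 0.710 CPM in BB cells in DMSO and at 1.52, 2.79, 2.80 and 2.38 CPM in BRD3308. In WT-ERG cells it was at 1.05, 1.40, 2.11 and 1.13 CPM and at 1.68, 2.59, 2.80 and 3.13 CPM. In P199L-ERG cells it was at 0.643, 1.44, 1.25 and 0.998 CPM and at 1.51, 2.85, 3.33 and 2.70 CPM. Treated and control libraries overlapped in WT-ERG cells only, and in every line replicate 1 was the lowest of the BRD3308-treated libraries.

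The log2 rise of *Ptgs2* was 1.25 in BB cells (SE 0.29, edgeR adjusted p = 0.000885), 0.80 in WT-ERG cells (SE 0.26, adjusted p = 0.0126) and 1.25 in P199L-ERG cells (SE 0.27, adjusted p = 0.00042). The WT-ERG response was smaller than the BB response by 0.45 (difference -0.45, 95% confidence interval -1.27 to 0.38), which did not pass. No difference between lines passed for *Ptgs2* in either treatment in edgeR. At 56 to 159 counts per group of 4 libraries, the interval for P199L-ERG against WT-ERG in BRD3308 ran from -0.44 to 0.51.

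*Lta4h*, the hydrolase that makes leukotriene B4 (ENSMUSG00000015889, chromosome 10, 93453411 to 93484875, plus strand), was the most abundant member. In BB cells it was at 1876, 1935, 2024 and 1982 CPM in DMSO and at 1694, 1722, 1736 and 1690.3 CPM in BRD3308. In WT-ERG cells it was at 1467, 1548, 1588 and 1652 CPM and at 1478, 1522, 1553 and 1541 CPM. In P199L-ERG cells it was at 1632, 1715, 1789 and 1785 CPM and at 1542, 1651, 1646 and 1627 CPM. Treated libraries lay below controls in BB cells, and overlapped them in both ERG lines.

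*Lta4h* fell by 0.19 on the log2 scale with BRD3308 in BB cells (SE 0.04, edgeR adjusted p = 0.000107). In WT-ERG cells the value was -0.04 (SE 0.04, 95% confidence interval -0.11 to 0.04, adjusted p = 0.431). In P199L-ERG cells it was -0.10 (SE 0.04, adjusted p = 0.0297), a call that was lost with the groups compared alone (adjusted p = 0.0583), with no filter on low counts (adjusted p = 0.121), with more than 30 counts in every library (adjusted p = 0.122) and without replicate 3 in DMSO (adjusted p = 0.0935) or replicate 1 in BRD3308 (adjusted p = 0.0917). In DMSO *Lta4h* was lower than in BB cells by 0.32 in WT-ERG cells (-0.32 log2 units, SE 0.04, adjusted p = 8.38e-08) and by 0.18 in P199L-ERG cells (-0.18, SE 0.04, adjusted p = 0.000683). In BRD3308 the WT-ERG difference from BB cells was -0.17 (SE 0.04, adjusted p = 0.00132), and the P199L-ERG value of -0.08 did not pass (adjusted p = 0.142).

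*Alox5ap*, which presents arachidonic acid to 5-lipoxygenase (ENSMUSG00000060063, chromosome 5, 149264767 to 149288153, plus strand), was at 394, 390.2, 436 and 437 CPM in BB cells in DMSO and at 395, 409, 424 and 443 CPM in BRD3308. In WT-ERG cells it was at 359, 373, 394 and 449.6 CPM and at 350.2, 360.0, 378 and 385 CPM. In P199L-ERG cells it was at 359.6, 365, 409 and 475 CPM and at 349.9, 344, 347 and 359 CPM. In both ERG lines replicate 4 was the highest of the DMSO libraries.

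With BRD3308, *Alox5ap* fell by 0.20 in P199L-ERG cells (-0.20 log2 units, SE 0.07, edgeR adjusted p = 0.0163). Without replicate 4 of these cells in DMSO the value was -0.12 and did not pass (adjusted p = 0.0811), whereas without replicate 4 of both ERG lines it was -0.11 and passed (adjusted p = 0.049). In BB cells it was 0.01 and in WT-ERG cells -0.10, and neither passed. In BRD3308 the difference from BB cells was -0.25 in P199L-ERG cells (SE 0.07, adjusted p = 0.00826). In WT-ERG cells it was -0.18 (SE 0.07, adjusted p = 0.0569), which passed under several alternatives (adjusted p = 0.0488 with RLE factors and 0.0025 with the groups compared alone). In DMSO no difference between lines passed with all libraries, whereas without replicate 4 of both ERG lines WT-ERG cells were lower than BB cells by 0.14 (-0.14, adjusted p = 0.0209) and P199L-ERG cells by 0.13 (-0.13, adjusted p = 0.0367). The gene has 189 of 1420 exon bases in common with the antisense gene *Gm19719*, which had 1458 counts in all.

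*Ptgs1*, the constitutive cyclooxygenase (ENSMUSG00000047250, chromosome 2, 36230426 to 36252272, plus strand), was at 160.1, 167, 169 and 180.4 CPM in BB cells in DMSO and at 156, 159, 162 and 162 CPM in BRD3308. In WT-ERG cells it was at 121, 132, 132 and 135 CPM and at 122, 133, 129 and 131 CPM. In P199L-ERG cells it was at 149, 144, 144 and 150.0 CPM and at 139, 140.1, 135 and 146 CPM. All WT-ERG libraries were below all P199L-ERG libraries, which were below all BB libraries, within each treatment.

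BRD3308 gave no call for *Ptgs1* in any line in the main edgeR fit, which used all libraries, TMM scaling and no block for the replicate number. The log2 fold changes were -0.08 in BB (adjusted p = 0.0948), -0.01 in WT-ERG (adjusted p = 0.805) and -0.07 in P199L-ERG cells (adjusted p = 0.176). The BB value passed with library size only (-0.09, adjusted p = 0.0393), without BB replicate 1 in DMSO (-0.11, adjusted p = 0.0376) and without P199L-ERG replicate 4 in DMSO (-0.09, adjusted p = 0.0495). In DMSO *Ptgs1* was lower than in BB cells in WT-ERG cells (-0.38, SE 0.04, adjusted p = 1.42e-08) and in P199L-ERG cells (-0.21, SE 0.04, adjusted p = 0.000261). In BRD3308 the differences were -0.31 (SE 0.04, adjusted p = 7.42e-07) and -0.19 (SE 0.04, adjusted p = 0.000947). P199L-ERG against WT-ERG in BRD3308 was 0.12 and did not pass (SE 0.04, adjusted p = 0.101). The gene has 148 of 3884 exon bases in common with *Gm43621* on the opposite strand, which had 499 counts.

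**Figure D3:**
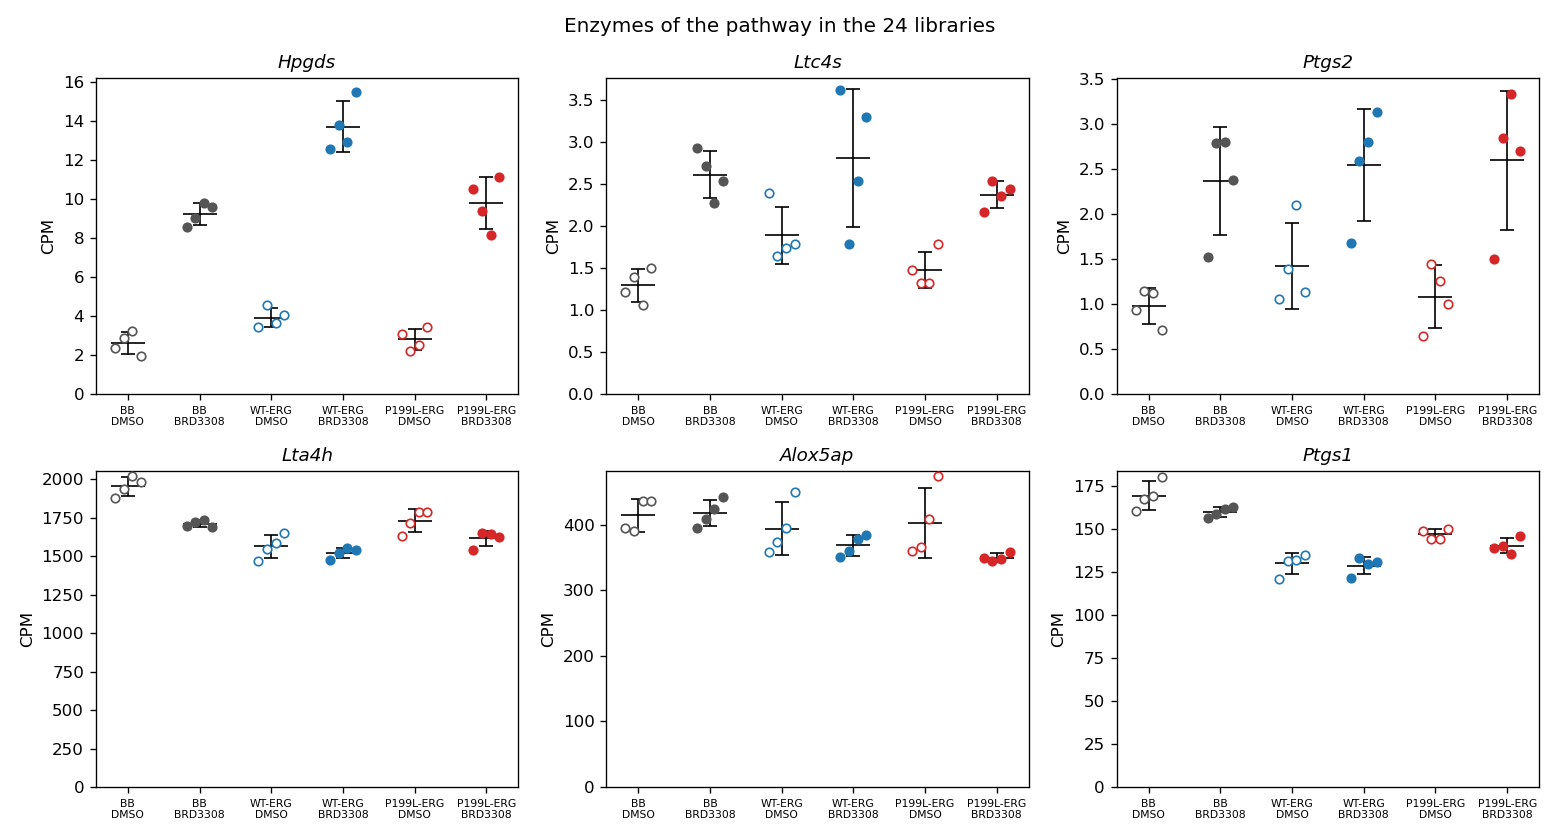
CPM of 6 enzyme and enzyme-partner genes in the 24 libraries, each panel with its own axis from 0, open circles for DMSO, filled circles for BRD3308, and black bars for mean and SD (n = 4). *Hpgds* lay between 1.97 and 4.55 CPM in DMSO and between 8.17 and 15.5 CPM in BRD3308, whereas *Ptgs1* was ordered by line, from 121 CPM in WT-ERG to 180.4 CPM in BB cells.

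Counted together, 4 of the 7 members tested rose and 1 fell with BRD3308 in BB cells, where edgeR called 45.9% of all genes, 24% as higher and 22% as lower. In WT-ERG cells 3 of 6 rose and 0 fell by edgeR, DESeq2 or limma-voom, and the other 3 did not pass at an unadjusted p under 0.05 either (48.0% of all genes called, 24.7% higher and 23.2% lower). In P199L-ERG cells 3 of 6 rose and 2 fell (48.5% called, 24.4% higher and 24.1% lower). *Cysltr1* is left out of the 6, since the DMSO libraries of both ERG lines chose it. The median log2 fold change was 0.36 over the 7 members in BB cells, which is the value of *Cysltr1* itself. Over the 6 members counted it was 0.28 in WT-ERG and 0.31 in P199L-ERG cells, so the BB median is over another set. The medians over all genes tested were 0.006, -0.001 and -0.006 in BB, WT-ERG and P199L-ERG cells. The genes that rose in the ERG lines were *Hpgds*, *Ltc4s* and *Ptgs2* in both. Without replicate 4 of both ERG lines in DMSO they still passed, with 1.81, 0.55 and 0.72 in WT-ERG and 1.91, 0.78 and 1.22 in P199L-ERG cells.

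The response to BRD3308 did not differ from that of BB cells for any of the 6 members counted by edgeR, in WT-ERG cells (0 called, against 1.73% of all genes) or in P199L-ERG cells (0 called, against 1.05%). At an unadjusted p under 0.05, 1 member passed in each, *Lta4h* in WT-ERG cells (difference 0.15) and *Alox5ap* in P199L-ERG cells (difference -0.21). DESeq2 and limma-voom also called 0, whereas edgeR with the replicate number as a block called 1 member in each, as given below. The intervals were wide for the low genes, from -1.01 to 0.12 for *Ltc4s* in WT-ERG against BB cells and from -0.98 to 0.99 for *Ptgs2* in P199L-ERG against BB cells.

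**Figure D4:**
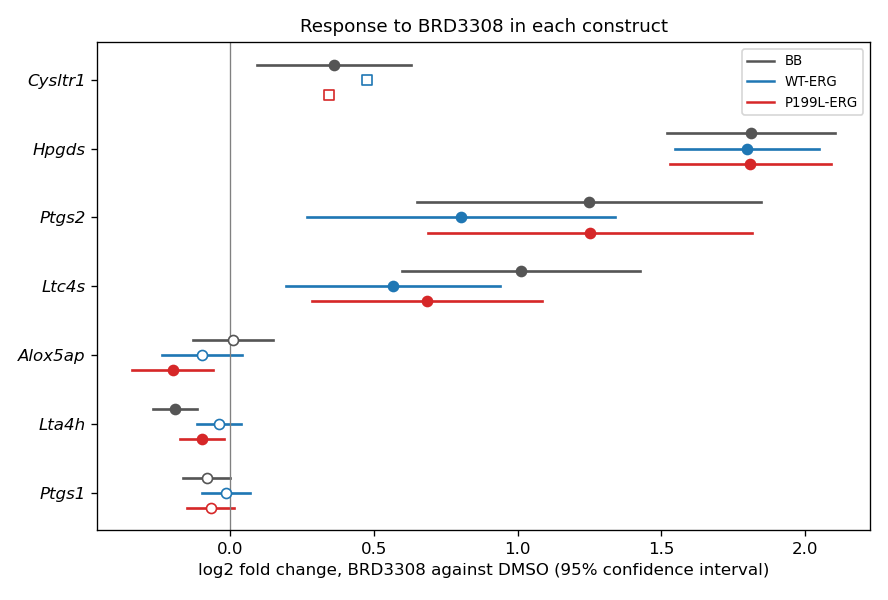
Log2 fold change of BRD3308 against DMSO for the 7 members tested in BB (grey), WT-ERG (blue) and P199L-ERG cells (red), with 95% confidence intervals, filled circles for calls at an adjusted p under 0.05 and open circles for none. Squares without an interval are *Cysltr1* values given without a test. *Hpgds* stood at 1.80 to 1.81 in the 3 lines and *Ptgs1* between -0.08 and -0.01.

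Between lines in DMSO, WT-ERG cells had 1 of 6 members higher and 2 lower, relative to BB cells (29.7% of all genes called, 15.6% higher and 14.1% lower). In P199L-ERG against BB cells 0 were higher and 2 lower by edgeR (28.2% called, 15.3% higher and 12.9% lower). The lower members were *Lta4h* and *Ptgs1* in both lines. Without replicate 4 of both ERG lines in DMSO they still passed, at -0.35 and -0.40 in WT-ERG and -0.19 and -0.21 in P199L-ERG cells, as did *Hpgds* in WT-ERG cells (0.57). At an unadjusted p under 0.05, 4 of 6 and 2 of 6 members passed, and DESeq2 and limma-voom called 3 and 2 as edgeR did. In BRD3308, WT-ERG cells had 1 of 7 members higher and 3 lower, relative to BB cells (21.1% of all genes called), and P199L-ERG cells had 1 higher and 2 lower (16.9% called). DESeq2 called 5 rather than 4 in WT-ERG against BB cells. In P199L-ERG against WT-ERG cells in BRD3308, *Cysltr1* was higher and *Hpgds* lower, 2 of 7 members where 3.4% of all genes were called. *Cysltr1* was chosen by this difference in DMSO in the same derived lines. Its calls between lines in BRD3308 therefore carry the choice with them and are not separate support in these counts. Of the other members, only *Hpgds* was called in P199L-ERG against WT-ERG cells. The comparisons between lines share control libraries, so their counts are not independent.

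**Figure D5:**
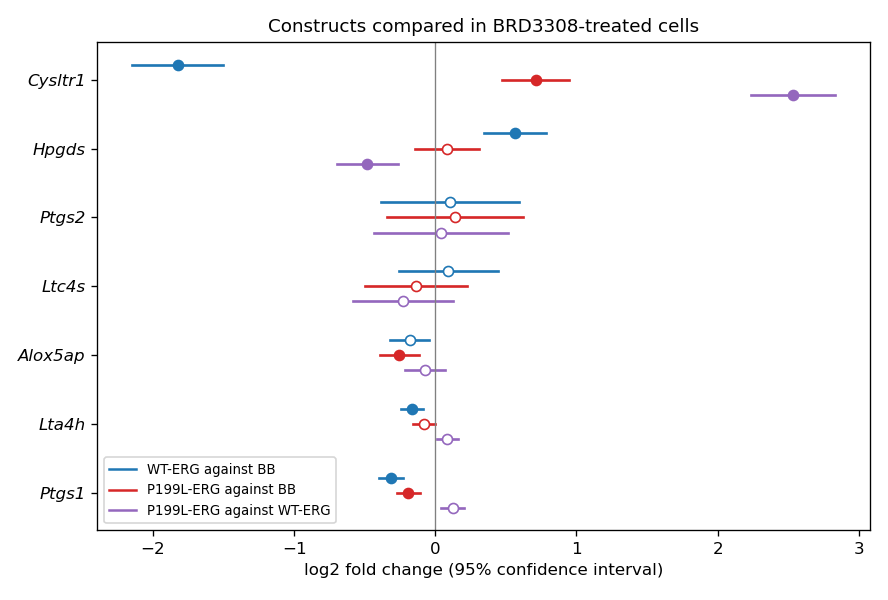
Log2 fold changes between lines in BRD3308-treated cells for the 7 members tested, with 95% confidence intervals, filled circles for calls at an adjusted p under 0.05 and open circles for none. *Cysltr1* lay at -1.82 in WT-ERG against BB, 0.71 in P199L-ERG against BB and 2.53 in P199L-ERG against WT-ERG cells, and the other members lay between -0.48 and 0.57.

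Markers of mature cells moved with the treatment as well. Over all genes, 24%, 24.7% and 24.4% rose with BRD3308 in BB, WT-ERG and P199L-ERG cells, and 22%, 23.2% and 24.1% fell. All 8 tested of 12 monocyte and macrophage markers rose with BRD3308 in all 3 lines, and their summed level went from between 830.3 and 877 to between 1905 and 2036 CPM in BB, from between 460.7 and 480.5 to between 1392 and 1480.0 CPM in WT-ERG, and from between 496 and 561 to between 1573 and 1682 CPM in P199L-ERG cells. In that list *C1qa*, *C1qb* and *Marco* had 0 counts. Of 10 neutrophil markers, 5 rose and 1 fell in BB, 6 rose and 1 fell in WT-ERG, and 5 rose in P199L-ERG cells. The rises include *Mmp8* and *Ly6g*, which were under the filter level in all DMSO libraries. The neutrophil sum went from between 2587 and 4347 CPM to between 5423 and 7403 CPM. Of the eosinophil list, 2 of 3 tested genes rose in each line. Of 4 tested platelet and megakaryocyte markers, 3 rose and 1 fell in each line. These rises include *Vwf*, which was under the filter level in all DMSO libraries. The sum of the platelet list rose in BB cells, from between 24.4 and 28.6 to between 39.3 and 48.0 CPM. It fell in WT-ERG cells, from between 63.7 and 69.9 to between 52.45 and 54.3 CPM. In P199L-ERG cells it went from between 44.9 and 47.9 to between 40.3 and 44.5 CPM. Of the 8 progenitor markers, 2 rose and 5 fell in BB cells, and 2 rose and 4 fell in each ERG line. Their part in the rises of *Hpgds*, *Ltc4s* and *Ptgs2* was not tested. Between lines in DMSO, WT-ERG cells had 4 of 6 tested mast cell and basophil markers higher and 1 lower, relative to BB cells, P199L-ERG cells had 5 higher and 1 lower, where *Prss34* was under the filter level in all BB libraries and entered the test only through the ERG lines. The list summed to between 380.2 and 400.2 CPM in BB, 508 and 555 CPM in WT-ERG, and 434 and 505 CPM in P199L-ERG cells. In BRD3308 it summed to between 314 and 352 CPM in BB, 330.4 and 353 CPM in WT-ERG, and 289 and 309.8 CPM in P199L-ERG cells. Of the monocyte and macrophage markers, 2 were higher and 5 lower in each ERG line than in BB cells in DMSO. Of the 10 neutrophil markers, 3 were higher and 5 lower in WT-ERG cells, and 1 was higher and 6 lower in P199L-ERG cells. Among these calls, 1 higher and 1 lower in WT-ERG and 2 lower in P199L-ERG cells were of genes under the filter level in a compared library. *Mmp8* and *Ly6g* entered the test only through BRD3308-treated libraries, so the neutrophil counts between lines are a description. Over all genes, 29.7% and 28.2% were called in WT-ERG and P199L-ERG against BB cells in DMSO. The part of these markers in the differences of *Cysltr1*, *Hpgds*, *Lta4h*, *Ptgs1* and the other pathway genes between lines was not tested.

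The other genes of the pathway were taken from 4 lists with 64 genes, of which 36 were tested. Of these 36, 15 rose and 7 fell with BRD3308 in BB cells, 15 rose and 6 fell in WT-ERG cells, and 11 rose and 7 fell in P199L-ERG cells, where 45.9%, 48.0% and 48.5% of all genes were called. Relative to BB cells in DMSO, WT-ERG cells had 8 higher and 12 lower (29.7% of all genes called), and P199L-ERG cells had 9 higher and 11 lower (28.2% called). The rises with BRD3308 include *Ggt5*, the genes higher in both ERG lines include *Cbr1*, and those lower in both ERG lines include *Ggt5* and *Dpep2*. Each entered the test only through the groups where it was high, so these counts are a description. Without replicate 4 of both ERG lines in DMSO, 37 were tested, and the counts were 16 and 8, 16 and 6, 13 and 6, 8 and 14, and 9 and 11 in the same order.

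Among 17 other leukotriene and lipoxygenase enzymes, 8 were tested, and with BRD3308 6 rose and 1 fell in BB cells, 7 rose and 1 fell in WT-ERG cells, and 6 rose and 1 fell in P199L-ERG cells (45.9%, 48.0% and 48.5% of all genes called). These rises include *Ggt5*, which is described below. Their median log2 fold changes were 1.15, 1.35 and 1.06. Relative to BB cells in DMSO, 1 was higher and 6 lower in WT-ERG cells (median -0.57, 29.7% of all genes called), and 1 was higher and 5 lower in P199L-ERG cells (median -0.42, 28.2% called). The lower genes include *Ggt5*, over the filter level in 2 of 4 BB libraries and in 0 of either ERG line in DMSO. They also include *Dpep2*, over it in 4 BB, 1 WT-ERG and 2 P199L-ERG libraries of 4 each. These counts between lines are therefore a description. *Cyp4f18*, which inactivates leukotriene B4 by oxidation, went from 2.79 ± 0.62 to 28.1 ± 2.48 CPM in BB cells (3.33 log2 units, SE 0.11, edgeR adjusted p = 1.09e-19) and rose by 2.20 in WT-ERG and 2.56 in P199L-ERG cells. Its response was smaller than in BB cells by 1.13 in WT-ERG cells (difference -1.13, SE 0.15, adjusted p = 2.97e-05) and by 0.77 in P199L-ERG cells (-0.77, SE 0.16, adjusted p = 0.0107). In DMSO it was higher than in BB cells by 1.36 in WT-ERG and 0.79 in P199L-ERG cells.

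*Dpep2*, a dipeptidase that converts leukotriene D4 to E4, rose by 2.02 in BB, 2.50 in WT-ERG and 2.41 in P199L-ERG cells, from between 0.372 and 1.48 CPM in DMSO to between 2.47 and 6.60 CPM in BRD3308. A second identifier of that symbol shares its exons and had no counts, so the reads of this gene are uncertain. *Ggt5*, a glutamyl transferase that makes leukotriene D4 from C4, exceeded the filter level in 2 of 4 BB libraries and in none of either ERG line in DMSO, so it was tested only because it is detected in BRD3308. Its values, 1.52, 1.84 and 1.55 in the same order, are given as a description. *Mgst1*, a microsomal glutathione transferase, rose by 1.67, 2.23 and 2.51, and its response was larger than in BB cells by 0.57 in WT-ERG (adjusted p = 0.00889) and by 0.85 in P199L-ERG cells (edgeR adjusted p = 0.000202). In DMSO *Dpep2* and *Mgst1* were lower in both ERG lines than in BB cells, with *Mgst1* at -1.04 in WT-ERG and -1.38 in P199L-ERG cells. *Cotl1*, whose product binds 5-lipoxygenase, fell with BRD3308 by 0.15 in BB, 0.11 in WT-ERG and 0.19 in P199L-ERG cells (log2 fold changes -0.15, -0.11 and -0.19). *Mgst2*, which can also make leukotriene C4, was the second most abundant gene of the list at 94.5 CPM per kilobase, after *Cotl1* at 238, and passed with BRD3308 in WT-ERG cells only (0.21, adjusted p = 0.0235).

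Of 13 other prostanoid enzymes 8 were tested, and 2 rose and 2 fell in BB, 3 rose and 2 fell in WT-ERG, and 2 rose and 2 fell in P199L-ERG cells, with medians of -0.02, 0.13 and -0.06. Over all genes, 45.9%, 48.0% and 48.5% were called, so these counts are near the general share. *Ptgds*, the other prostaglandin D synthase, rose by 1.29 in BB (SE 0.08, edgeR adjusted p = 1.05e-13), 1.64 in WT-ERG (SE 0.09, adjusted p = 4.48e-14) and 1.23 in P199L-ERG cells (SE 0.09, adjusted p = 2.02e-12). In DMSO it was lower than in BB cells by 1.21 in WT-ERG and 0.54 in P199L-ERG cells (log2 fold changes -1.21 and -0.54), whereas *Hpgds* was higher in WT-ERG cells. *Tbxas1*, the thromboxane synthase, rose by 0.80, 0.93 and 0.76 in BB, WT-ERG and P199L-ERG cells.

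*Ptges*, an inducible prostaglandin E synthase, fell by 0.74 in BB cells (log2 fold change -0.74, adjusted p = 0.0059) and was lower in WT-ERG cells in DMSO than in BB cells (-1.17, adjusted p = 0.000199). *Ptges3*, a cochaperone with prostaglandin E synthase activity, fell by 0.27 in WT-ERG and 0.16 in P199L-ERG cells (-0.27 and -0.16), and its value in BB cells was -0.08 and did not pass. *Cbr1*, a carbonyl reductase, was at 0.0886 ± 0.0353 CPM in BB cells in DMSO against 1.46 ± 0.244 CPM in WT-ERG and 1.12 ± 0.376 CPM in P199L-ERG cells. It was tested only because it is detected in the ERG lines, so its difference from BB cells (3.90 and 3.52 on the log2 scale) is given as a description.

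Among 18 other receptors and transporters 10 were tested, and 4 rose and 2 fell in BB, 4 rose and 1 fell in WT-ERG, and 3 rose and 2 fell in P199L-ERG cells, with medians of 0.04, 0.12 and 0.09. The shares of all genes called were 45.9%, 48.0% and 48.5%. *Ltb4r1*, the receptor of leukotriene B4, was the most abundant at 131 CPM per kilobase. It was lower than in BB cells by 0.54 in WT-ERG (-0.54 log2 units, SE 0.07, edgeR adjusted p = 8.45e-07) and by 0.33 in P199L-ERG cells (-0.33, SE 0.07, adjusted p = 0.000811) in DMSO. *Ltb4r1* fell with BRD3308 in BB (-0.23, adjusted p = 0.0105) and P199L-ERG cells (-0.20, adjusted p = 0.0258), and its value in WT-ERG cells was 0.03 and did not pass.

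*Ptgir*, the prostacyclin receptor, rose with BRD3308 by 0.37 in BB and 0.16 in WT-ERG cells and was higher in both ERG lines than in BB cells in DMSO (0.40 and 0.35). *Fpr2*, a formyl peptide receptor that also binds lipoxins, rose in all 3 lines, by 0.74 in BB, 1.22 in WT-ERG and 0.71 in P199L-ERG cells. *Ptger4*, a prostaglandin E receptor, was higher than in BB cells in DMSO by 1.09 in WT-ERG (adjusted p = 0.00168) and by 0.76 in P199L-ERG cells (edgeR adjusted p = 0.0356). No BRD3308 response of *Ptger4* passed.

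Of 16 genes for phospholipases and the supply of arachidonic acid 10 were tested, and 3 rose and 2 fell in BB cells, 1 rose and 2 fell in WT-ERG cells, and 2 fell in P199L-ERG cells (45.9%, 48.0% and 48.5% of all genes called). *Fads2*, a desaturase on the route to arachidonic acid, fell in all 3 lines, by 0.25 in BB, 0.23 in WT-ERG and 0.31 in P199L-ERG cells (log2 fold changes -0.25, -0.23 and -0.31). *Lpcat3*, which returns arachidonic acid to phospholipids, was the most abundant gene of this list at 40.4 CPM per kilobase and fell in WT-ERG (-0.10, adjusted p = 0.0196) and P199L-ERG cells (-0.20, edgeR adjusted p = 3.82e-05). Its value in BB cells was -0.02 and did not pass.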

How the data were processed

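RNA sequencing counts of 24 libraries in 6 groups of 4 were analysed. After removing reads under 30 bp, the authors aligned with STAR to GRCm38 and deposited raw counts per gene. Cutadapt, HTSeq and DESeq2 are further tools in the submitters' processing notes, which give no versions. The annotation was not given in the sources used here, and the strand setting was likewise not stated. Groups were taken from the labels. Symbols, coordinates and exon lengths came from GENCODE M21, which matched 53706 of 53801 genes, and promoter windows from RefSeq (GRCm38.p6). Libraries held 12510036 to 16280939 counts, so genes near 1 CPM rest on few counts per library.

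Genes were filtered with filterByExpr, libraries were scaled by TMM, and edgeR 4.0.16 (R 4.3.3) was used to fit 1 quasi-likelihood model with the 6 groups as factor levels. Two-sided tests were Benjamini-Hochberg adjusted over 12963 genes and called at 0.05. The SE was taken as the size of the log2 fold change over the root of F. Differences in response are interaction contrasts. Permutation tests were exact and used log2 CPM with a prior count of 2. The method was tested on simulated counts.

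The 9 members and all lists were chosen with earlier results of these data known. *Cysltr1* was not tested in comparisons that use the DMSO libraries of the ERG lines. From the 4 pathway lists the text names the 2 most abundant tested genes of each, and genes with an absolute log2 fold change of at least 1 at an adjusted p under 0.05 in a BRD3308 response or a difference from BB cells in DMSO. Genes like *Cysltr1* are the 5 of highest correlation. *Plaat3* and *Prxl2b* were matched through older symbols.

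Alternatives were RLE factors, library size only, no filter on low counts, more than 30 counts in every library, DESeq2 1.42.0, limma-voom (limma 3.58.1), the groups compared alone, the replicate number as a block, each library left out in turn, and replicate 4 of both ERG lines in DMSO left out together, which was known from an earlier analysis to stand apart.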

Additional observations from a re-analysis of the deposited data

How the results depend on the processing

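No result reversed its direction while called under any alternative. The difference of *Cysltr1* between P199L-ERG and WT-ERG cells in BRD3308 kept its call in all alternatives that tested it, with values of 2.43 to 2.70 when a library was left out. It had no value with more than 30 counts in every library, a filter that *Cysltr1* did not pass. That filter left 3 members (*Lta4h*, *Alox5ap* and *Ptgs1*), and by its construction the number called with BRD3308 became 1 in BB, 0 in WT-ERG and 1 in P199L-ERG cells, that in WT-ERG against BB cells in BRD3308 became 2, and that in P199L-ERG against WT-ERG cells in BRD3308 became 0. The response of WT-ERG minus that of BB cells called 1 member, *Lta4h*, with library size only (0.17, adjusted p = 0.0483) and without replicate 4 of both DMSO-treated ERG lines (0.18, adjusted p = 0.0211), and the cause was not tested. Leaving out 1 library at a time changed no count of members called by more than 1.5 times. Many of these fits tested 8 rather than 7 members in BB cells, so such counts are over another set. Over all alternatives, 1995 of 2046 values of single members stayed on their side of the threshold, 12 calls were lost and 39 were gained. Many of these values come from leaving out a library of a group outside the comparison. Such a library acts only through the shared fit, so this share overstates how stable the calls are.

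Replicate numbers of the labels were tried as a replicate block. Deviations of same-numbered libraries correlated by -0.005 to 0.295 over the comparisons. Replicate 1 correlated with its own number by 0.194 to 0.282 in every comparison, against at most 0.082 with another number. Replicate 4 correlated best with its own number except in WT-ERG against BB cells in DMSO (0.079 against 0.098). The remaining numbers reached at most 0.088 with their own. Libraries numbered 1, and mostly those numbered 4, thus deviated together, and the cause was not tested. Because not every pair exceeded 0.1, the main fit used no block, and the calls below depend on this choice. With the block, the response of WT-ERG minus that of BB cells called 1 member (*Lta4h*, 0.15, adjusted p = 0.0134) and that of P199L-ERG minus BB cells called 1 (*Alox5ap*, -0.20, adjusted p = 0.0377). The block also gave calls for BRD3308 to *Ptgs1* in BB (-0.08, adjusted p = 0.0385) and *Alox5ap* in WT-ERG cells (-0.09, adjusted p = 0.0481), for WT-ERG against BB cells to *Ltc4s* in DMSO (0.54, adjusted p = 0.0396) and *Alox5ap* in BRD3308 (-0.18, adjusted p = 0.000727), and in BRD3308 to *Lta4h* for P199L-ERG against BB (-0.08, adjusted p = 0.0215) and *Ptgs1* for P199L-ERG against WT-ERG cells (0.12, adjusted p = 0.0213). Not every library correlated best with its own number.

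*Alox5* and *Alox15* had at most 16 and 7 counts in a library. Differences in *Ptgs2* and *Ltc4s* whose intervals span 0 are undecided, and the part of depth in them was not tested. One stable line stood for each construct.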
